A study of Rattus norvegicus with 24 samples.

Results

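The genes described here are the 6 that mark dopamine and serotonin neurons on this array: Th, Ddc, Tph2, Slc18a2, Slc6a3 and Slc6a4. They were picked by gene name, and with earlier results of these arrays in view: their saline level in each brain region and their ratio of treated over saline RNA at both doses chose them, so those values are given below as a description, with no test. The 6 genes are read by 8 probes on 17 spots, out of 41012 probes, 43379 spots and 35537 features, of which 15502 carry a gene symbol. A feature is a gene, or a probe where no gene name could be given.

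The study measured the response of the brain of male Wistar rats to MK-801, a blocker of the NMDA receptor channel, 40 min after an intraperitoneal injection. The groups are a high dose (0.16 mg/kg), a low dose (0.08 mg/kg) and a saline vehicle, each sampled in midbrain, hypothalamus, amygdala, hippocampus, cerebral cortex and ventral striatum. The study used 9 rats, of which 3 received saline. Sources differ on the rats' age, with 9 weeks stated per sample and 10 weeks in the series' design text. Every array is a 2-colour array that carries treated RNA in one dye and saline RNA of the same region in the other, and 2 arrays with swapped dyes cover every region at either dose, making 12 pairs and 24 arrays in all. The labels state neither how many rats an extract holds nor whether the arrays of a pair hold different extracts. A pair is therefore counted as 1 replicate, its SD measures the spread between arrays, and precision is limited throughout by how few arrays there are.

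Dopamine neurons lie mainly in the ventral midbrain, with smaller groups in the hypothalamus, and serotonin neurons lie in the raphe nuclei along the midline of the brainstem. Tyrosine hydroxylase, from Th, makes L-DOPA from tyrosine and is the rate-limiting enzyme of dopamine synthesis, and tryptophan hydroxylase 2, from Tph2, catalyses the corresponding first step for serotonin in neurons. Aromatic L-amino acid decarboxylase, from Ddc, completes the synthesis of both transmitters. The vesicular monoamine transporter, from Slc18a2, loads them into synaptic vesicles, and the plasma membrane transporters of dopamine (Slc6a3) and serotonin (Slc6a4) take them back up after release. Because the RNA was taken from whole dissected pieces, fewer cells of a type and less RNA per cell cannot be told apart in any value below.

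Each channel had a median signal over local background of 47.3 to 357 scanner units, and 56.8% to 89.7% of its spots, controls left out, were well above background. All 4 arrays of a region lie on 1 slide, so slide and region cannot be told apart. The labelled regions were set against marker genes in the saline RNA, as summed levels on the log2 scale. The 9 hypothalamic markers on the array summed to 13.46 to 13.70 in hypothalamus and to no more than 12.03 in any other region, and the 10 markers of striatal projection neurons summed to 17.98 to 18.11 in ventral striatum and to no more than 14.63 elsewhere. Thalamic markers summed to 16.80 to 16.88 in hypothalamus and 15.68 to 15.82 in midbrain, and choroid plexus markers to 15.25 to 15.69 in amygdala. The sums therefore do not show that a piece holds only its labelled region. No such check is given for the other labels, midbrain among them.

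The probe of Th and the 2 probes of Slc6a4 are shown because the pairs of values they give carry much of what follows: the Th probe is spotted 10 times on each array, and the Slc6a4 probes read 2 stretches of that gene whose starts lie 6664 bases apart. All 3 are 60 bases long, and their rn3 coordinates are those of the scanner files. Th is read at chr1:203318940-203318999 on the minus strand. Slc6a4 is read at chr10:67153686-67153745 and at chr10:67160350-67160409, both on the minus strand. The first of these was the brighter and gives the values of Slc6a4 below.
Th: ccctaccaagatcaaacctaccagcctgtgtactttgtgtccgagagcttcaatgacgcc
Slc6a4, brighter probe: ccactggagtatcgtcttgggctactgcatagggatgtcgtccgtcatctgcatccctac
Slc6a4, other probe: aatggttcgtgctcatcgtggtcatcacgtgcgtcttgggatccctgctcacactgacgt

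In saline RNA all 6 genes had their highest level in midbrain. On the log2 scale, and against the mean of the other 5 regions, midbrain was higher by 6.15 for Th, 3.81 for Ddc, 2.25 for Tph2, 5.90 for Slc18a2 and 1.12 for Slc6a4. Slc6a3 was not well above background in 4 of these regions, so its excess is given as bounds further on. Thus 5 of the 6 lay at least 4-fold higher there, and Slc6a4 did not. With the scanner software's processed signals Slc6a4 passed this fold as well, so its excess depends on the processing. Of the 19905 features well above background in saline midbrain, 0.412% (82) passed that fold. That share takes the other regions' signals as measured, also where they are near background. These values are a description, since regional levels were among those that chose the genes.

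**Figure D1:**
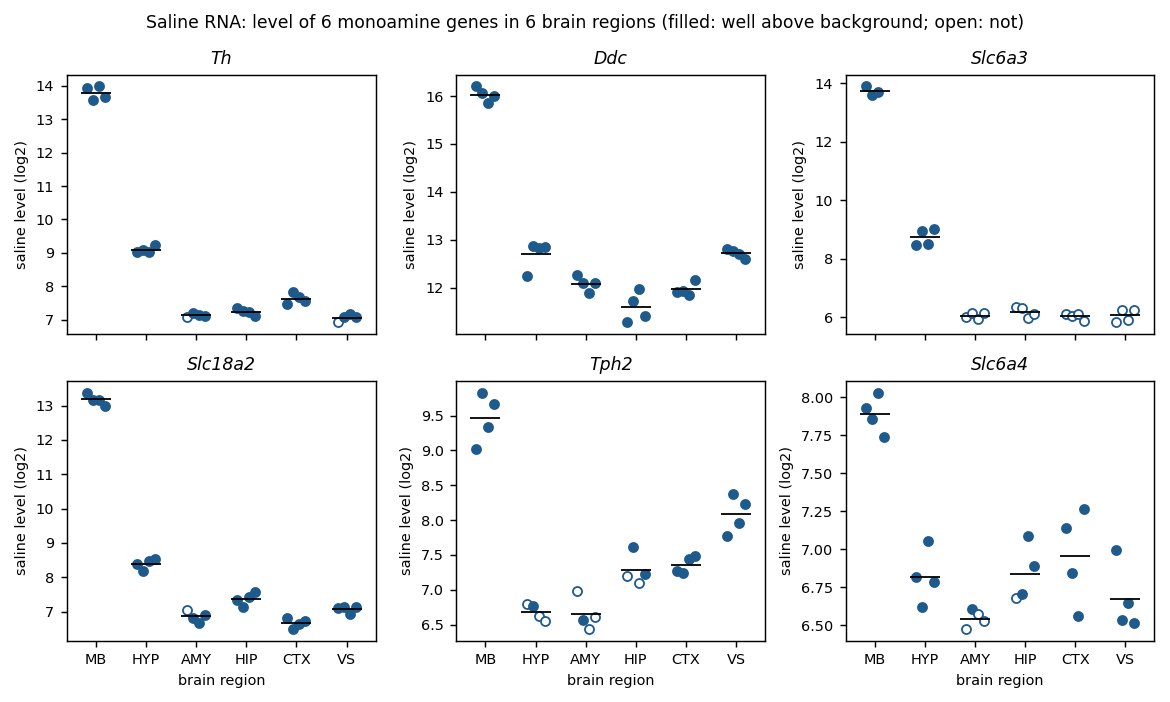
Saline level (log2) of each of the 6 genes on the 4 arrays of each region, MB midbrain, HYP hypothalamus, AMY amygdala, HIP hippocampus, CTX cortex, VS ventral striatum; lines are means, filled points are well above background and open points are not, and each gene has its own vertical scale. Midbrain is highest for every gene, and hypothalamus stands second for Th, Slc6a3 and Slc18a2.

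Among the enzymes, Th had a saline level of 13.79 ± 0.20 in midbrain and 9.10 ± 0.09 in hypothalamus (log2, SD, n = 4 arrays), a 25.8-fold difference. It followed with 7.63 in cortex, 7.24 in hippocampus, 7.14 in amygdala and 7.07 in ventral striatum. Midbrain, hypothalamus and cortex each lay clear of the next region down, whereas hippocampus overlapped with amygdala and amygdala with ventral striatum. Ddc had the flattest profile of the dopamine genes, with 16.03 ± 0.15 in midbrain, 12.72 in ventral striatum, 12.70 ± 0.30 in hypothalamus, 12.09 in amygdala, 11.96 in cortex and 11.60 in hippocampus. Below midbrain, each region's Ddc values overlapped those of the next. Tph2 stood at 9.46 ± 0.36 in midbrain and 8.08 ± 0.27 in ventral striatum, a 2.60-fold difference without overlap. Its level was 7.36 in cortex, 7.28 in hippocampus, 6.68 in hypothalamus and 6.65 in amygdala, and it was well above background on 1 of the 4 saline arrays in each of the last 2 regions.

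Among the transporters, Slc18a2 had 13.18 ± 0.15 in midbrain and 8.40 ± 0.16 in hypothalamus, a 27.4-fold difference, with 7.38 in hippocampus, 7.08 in ventral striatum, 6.86 in amygdala and 6.67 in cortex. Its values in midbrain, hypothalamus and hippocampus each lay clear of the next region, and the last 3 regions overlapped their neighbours. Slc6a3, the dopamine transporter, had 13.74 ± 0.14 in midbrain (n = 3, since 1 spot was marked as an outlier and left out) and 8.74 ± 0.29 in hypothalamus, a 32.1-fold difference. In the other 4 regions it was well above background on no saline array, so midbrain was at least 142-fold higher than hippocampus, at least 153-fold higher than amygdala, at least 166-fold higher than ventral striatum and at least 185-fold higher than cortex. These bounds set the midbrain mean against the lowest signal among probes well above background on each array of the dim region, or against the dim probe's own value where that was higher.

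Slc6a4, the serotonin transporter, had the smallest midbrain excess of the 6, with 7.89 ± 0.12 in midbrain and 6.54 to 6.95 in the other regions. It was well above background on only 1 of the 4 saline arrays in amygdala, the lowest region, and on 3 of 4 in hippocampus. Midbrain did not overlap with cortex, the next region, at a 1.91-fold difference, and the 5 lower regions overlapped each neighbour. Over the saline channels, the levels of Th and Slc6a3 had a Pearson r of 0.991 (23 channels) and those of Tph2 and Slc6a4 one of 0.739 (24 channels). With the 4 dopamine genes, Slc6a4 had an r of 0.806 to 0.879 and Tph2 one of 0.642 to 0.832. Slc6a4 was thus more like each dopamine gene than like Tph2, and the r of Tph2 and Slc6a4 does not set them apart as a pair. These are descriptions, because the 4 channels of a region share their slide and possibly their RNA.

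In hypothalamus, the mean level of the 4 genes of dopamine neurons was lower in treated than in saline RNA at both doses. Th stood at 0.513 of the saline level with the high dose and 0.523 with the low dose, Slc18a2 at 0.533 at both, and Ddc at 0.850 and 0.872. Slc6a3 was at least 4.31-fold lower at the high dose and stood at 0.251 of the saline level at the low dose. In midbrain, the 2 serotonin genes were higher in treated than in saline RNA at both doses: Tph2 by 1.70-fold at the high dose and 2.67-fold at the low dose, and Slc6a4 by 1.60-fold and 1.86-fold. Both doses of a region may have been set against the same saline RNA, so the 2 doses are given side by side and are not independent of each other. Each region and dose is 1 replicate, and treatment cannot be told apart from differences between the rats or the dissected pieces.

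**Figure D2:**
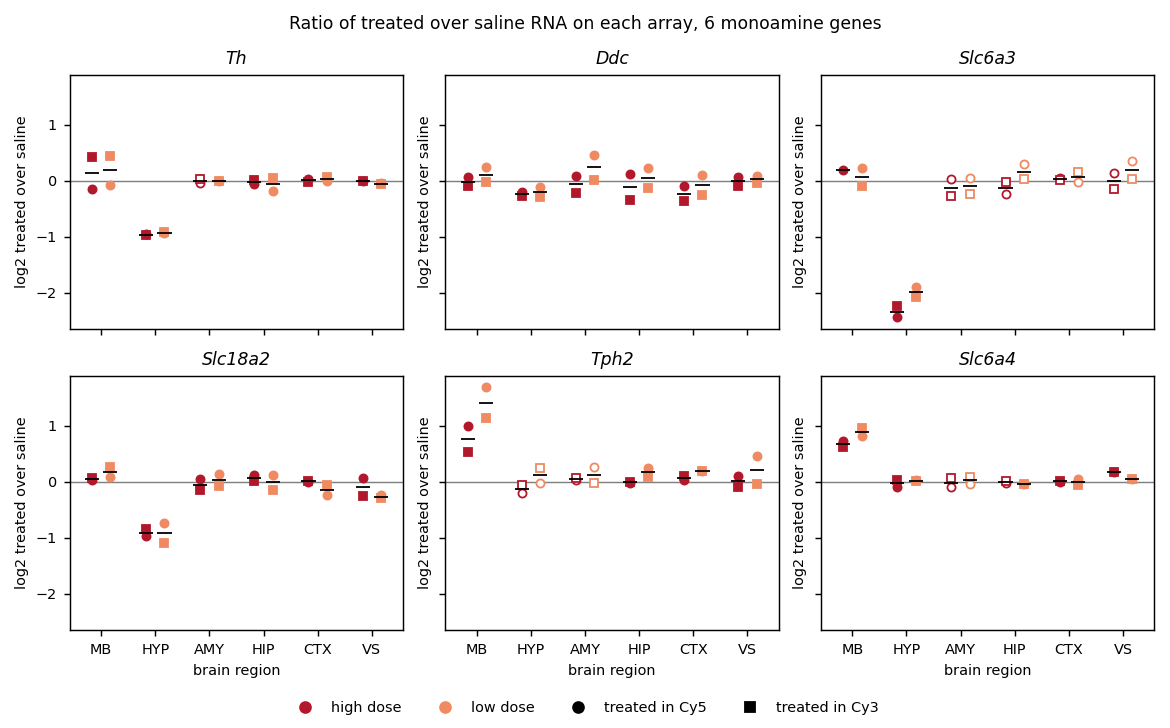
Ratio of treated over saline RNA (log2) of the 6 genes on each array, by region (abbreviated as MB midbrain, HYP hypothalamus, AMY amygdala, HIP hippocampus, CTX cortex, VS ventral striatum); dark points are the high dose and light points the low dose, circles have the treated RNA in Cy5 and squares in Cy3, lines are means, and open points mark pairs not well above background. Th, Slc6a3 and Slc18a2 lie at -0.73 or below in hypothalamus on all arrays, and Tph2 and Slc6a4 at 0.54 or above in midbrain on all arrays.

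Th in hypothalamus had levels of 8.08 and 8.11 in high-dose RNA, against 9.03 and 9.09 in the saline RNA of the same arrays. Its levels in low-dose RNA were 8.10 and 8.30, against 9.04 and 9.22 in saline RNA. All 4 treated values lay below all 4 saline values. The log2 ratio was -0.96 ± 0.02 with the high dose and -0.93 ± 0.01 with the low dose (SD, n = 2 arrays each), so both dye orientations gave nearly the same value. At the high dose 0.0357% of the 22422 features measured in hypothalamus had a lower ratio, and at the low dose 0.00877% of 22813.

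Slc6a3 in hypothalamus had levels of 6.03 and 6.71 in high-dose RNA, against 8.47 and 8.95 in saline RNA. Low-dose RNA gave 6.61 and 6.93, against 8.51 and 9.02 in saline RNA. The saline RNA was well above background on all 4 arrays. The treated RNA was so on 0 of the 2 high-dose arrays and on 1 of the 2 low-dose arrays. The high dose was therefore at least 4.31-fold lower, with a measured log2 ratio of -2.34 ± 0.14, and the low dose had a log2 ratio of -1.99 ± 0.13. The other background corrections and normalisations gave larger differences, up to -6.15 and -3.66 with the scanner software's processed signals, so the size of the Slc6a3 ratio depends on the processing.

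Slc18a2 in hypothalamus had levels of 7.44 and 7.33 in high-dose RNA, against 8.40 and 8.18 in saline RNA. Low-dose RNA gave 7.75 and 7.45, against 8.47 and 8.55 in saline RNA. Treated and saline values did not overlap. The log2 ratio was -0.91 ± 0.08 with the high dose and -0.91 ± 0.26 with the low dose. The second Slc18a2 probe, 1169 bases away on the same strand, was dimmer: the treated RNA was well above background on none of the 4 arrays, and its log2 ratios of -0.40 and -0.24 give no usable size. With the mean of both probes, the ratio was -0.65 with the high dose and -0.58 with the low dose, and with the deposited value table -1.51 and -1.40.

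Ddc in hypothalamus had log2 ratios of -0.23 ± 0.05 with the high dose and -0.20 ± 0.12 with the low dose, below 0 on all 4 arrays. Its treated levels of 12.05 to 12.71 overlapped the saline levels of 12.25 to 12.88. Of the 6 genes, Th, Slc6a3 and Slc18a2 were the 3 whose treated levels all lay below the saline levels in hypothalamus. Over all 21112 features measured there, 0.611% (129) had all treated levels below and 0.597% (126) all above the saline levels. Since the ratios in hypothalamus chose the genes, nothing is read from that difference. Slc6a4 had log2 ratios of -0.03 and 0.02 there, and Tph2 was not well above background.

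**Figure D3:**
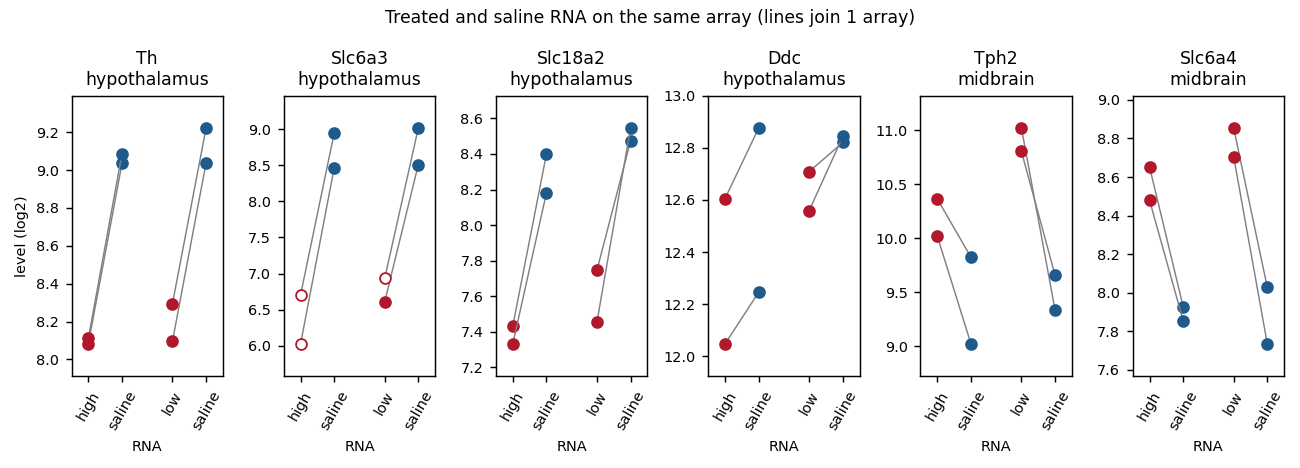
Level (log2) of 4 genes in hypothalamus and 2 genes in midbrain on each array, with high- or low-dose RNA to the left and the saline RNA of the same array to the right of each line; filled points are well above background, open points are not, and the vertical scales differ. Treated points lie below the saline points on every array for Th, Slc6a3, Slc18a2 and Ddc in hypothalamus, and above them for Tph2 and Slc6a4 in midbrain.

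In midbrain, where the dopamine genes have their highest level, their ratios lay nearer 0 and had no common sign over the arrays and probes. Th had log2 ratios of -0.15 and 0.43 on the high-dose arrays and -0.08 and 0.44 on the low-dose arrays. In each pair the array with treated RNA in Cy3 gave the positive ratio, and the means of 0.14 ± 0.41 and 0.18 ± 0.37 were smaller than their spread. Over the Th spots of one midbrain array (7 usable spots on the second high-dose array, 10 on the others) the SD was only 0.053 to 0.067, so this spread lies between arrays and not between spots. Slc18a2 had 0.05 ± 0.02 and 0.18 ± 0.13 at the high and low dose. Its brighter probe was above 0 on all 4 arrays, its other probe read -0.14 on the high-dose array with treated RNA in Cy5, and median centring in place of loess turned the high-dose value to -0.03. Ddc had -0.02 ± 0.12 and 0.11 ± 0.18. Slc6a3 had 0.18 on the 1 high-dose array with a usable spot, so the dyes are not balanced there, and 0.07 ± 0.23 at the low dose. With median centring the high-dose value of Slc6a3 was 0.999.

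Tph2 in midbrain had levels of 10.02 and 10.37 in high-dose RNA, against 9.02 and 9.83 in saline RNA. Low-dose RNA gave 11.02 and 10.81, against 9.34 and 9.66 in saline RNA. All 4 treated values lay above all 4 saline values, and the low-dose values were the highest. The log2 ratio was 0.77 ± 0.32 with the high dose and 1.42 ± 0.38 with the low dose. Of the features measured in midbrain, 99.9% had a lower ratio than Tph2 at the high dose.

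Slc6a4 in midbrain had levels of 8.65 and 8.48 in high-dose RNA, against 7.93 and 7.85 in saline RNA. Low-dose RNA had 8.85 and 8.71, against 8.03 and 7.73 in saline RNA. Again the groups did not overlap. The log2 ratio was 0.67 ± 0.07 with the high dose and 0.90 ± 0.10 with the low dose. The other Slc6a4 probe, shown above, gave 0.70 ± 0.49 and 0.79 ± 0.12, above 0 on all 4 arrays. Of the 6 genes, these 2 had all treated levels above the saline levels in midbrain. Over all 22016 features measured there, 0.291% (64) did so and 0.336% (74) lay all below, and again the ratios had chosen the genes.

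Of the combinations well above background in amygdala, hippocampus, cortex and ventral striatum, those with the largest ratios were Slc18a2 in ventral striatum (-0.27 ± 0.04, low dose), Ddc in amygdala (0.24 ± 0.31, low dose) and Ddc in cortex (-0.24 ± 0.20, high dose). Tph2 had 0.19 ± 0.0023 in cortex, 0.17 ± 0.11 in hippocampus and 0.21 ± 0.36 in ventral striatum at the low dose. The corresponding high-dose values were 0.07 ± 0.05, -0.01 ± 0.02 and 0.01 ± 0.15. Th stayed within -0.07 and 0.03 in these 4 regions at both doses, and Slc6a4 within -0.03 and 0.17. Over all regions, 27 combinations of gene and region were measured at the high dose, of which 12 were above 0, with a median of -0.01. At the low dose 29 were measured, of which 16 were above 0, with a median of 0.02. The SD of the ratio over all features of a region was 0.09 to 0.12. Some of these small ratios depend on the processing: with the deposited value table Slc18a2 had -0.90 in ventral striatum at the low dose and Slc6a4 had 0.40 there at the high dose. With the mean over probes these values were -0.12 and 0.07. The dimmer Slc18a2 probe, not well above background there, read 0.03 at the low dose.

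The promoters of Th, Slc18a2 and Tph2 are shown because the first 2 genes had like ratios in hypothalamus and Tph2 had the largest ratio of the 6 genes in midbrain. They run from 250 bases before to 50 bases after the start of the gene in RefSeq (build GRCr8), at chr1:207508169-207508468 on the minus strand for Th, chr1:268399771-268400070 on the plus strand for Slc18a2 and chr7:52675590-52675889 on the minus strand for Tph2. Capitals mark matches to the searched motifs.
Th promoter: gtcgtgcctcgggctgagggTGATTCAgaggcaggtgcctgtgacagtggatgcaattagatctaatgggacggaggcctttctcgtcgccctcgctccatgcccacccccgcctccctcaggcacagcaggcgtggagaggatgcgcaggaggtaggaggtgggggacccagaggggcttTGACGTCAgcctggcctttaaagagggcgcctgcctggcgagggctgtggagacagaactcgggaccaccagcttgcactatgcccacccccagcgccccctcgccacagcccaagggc
Slc18a2 promoter: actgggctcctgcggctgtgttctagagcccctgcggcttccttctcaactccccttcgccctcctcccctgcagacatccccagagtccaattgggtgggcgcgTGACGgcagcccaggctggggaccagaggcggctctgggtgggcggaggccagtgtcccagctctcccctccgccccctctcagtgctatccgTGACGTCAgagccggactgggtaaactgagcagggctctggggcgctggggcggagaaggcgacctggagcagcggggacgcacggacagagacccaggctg
Tph2 promoter: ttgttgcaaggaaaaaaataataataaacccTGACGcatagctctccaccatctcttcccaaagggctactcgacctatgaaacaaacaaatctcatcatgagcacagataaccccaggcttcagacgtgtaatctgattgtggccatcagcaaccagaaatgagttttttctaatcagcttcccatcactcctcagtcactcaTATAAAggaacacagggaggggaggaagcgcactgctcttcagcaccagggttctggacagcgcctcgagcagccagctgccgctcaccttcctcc

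Motifs were searched on both strands of the 300-base promoters: the full cyclic AMP response element TGACGTCA, its core TGACG, the AP-1 site TGANTCA, the NR4A response element AAAGGTCA and the TATA box TATAAA. Of all 33469 promoters in the table, 1.83% held TGACGTCA, 21.2% TGACG, 7.33% TGANTCA, 1.43% AAAGGTCA and 14.2% TATAAA. Th held TGACGTCA at -69 to -62 and TGANTCA at -230 to -224, counted from the start of the gene. Slc18a2 held TGACGTCA at -52 to -45 and a further TGACG at -145 to -141. The core lies within the full element on both strands, so each TGACGTCA also counts as TGACG. Tph2 held TGACG at -219 to -215 and TATAAA at -46 to -41.

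Slc6a3 held TGACG at 31 to 35, after the start. Ddc has 3 promoter entries, of which 1 held TGANTCA at -163 to -157 and, overlapping each other on the minus strand, AAAGGTCA at -73 to -66 and TATAAA at -68 to -63. The other 2 entries held none of the 5 motifs. Promoters were matched for 5 of the 6 genes, and Slc6a4 is named only. A match is a stretch of letters in this window and does not show that a factor binds there.

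Genes around the 6 were described from 6 lists of 67 genes in all, 64 of them on the array. These lists were tested over the 6 regions, with limma on the log2 ratio of each region (n = 6) and Benjamini-Hochberg adjustment over all features, called at an adjusted p under 0.05. The regions were dissected from the brains of the same 9 rats and are not independent units. A call here says only that the ratio exceeded the spread between regions. At the high dose 2.81% of 16818 features were called (1.5% higher and 1.3% lower), and 0 of the 29 list genes measured in all 6 regions were called. The lowest adjusted p among the 29 was 0.0692, and 2195 features had an unadjusted p under 0.05. At the low dose 3.18% of 18239 features were called (1.58% higher and 1.6% lower), and of 36 list genes 1 was higher and 0 lower.

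With the mean over the probes of a gene in place of the brightest probe, 0 list genes were called at the low dose. In the difference of the high minus the low dose, 2.19% of 15454 features were called (1.25% higher and 0.938% lower) and 2 of 27 list genes, 1 in each direction. Nr4a2, for the nuclear receptor Nurr1 of dopamine neurons, had a difference of 0.22 ± 0.05 (SE), above 0 in 6 of 6 regions, with a limma adjusted p of 0.0253. In saline RNA, its midbrain level minus the mean of the other 5 regions was -0.27 (log2), so its values cannot be assigned to dopamine neurons. Its log2 ratios in midbrain were 0.09 ± 0.15 with the high dose and 0.03 ± 0.14 with the low dose (SD). The count of list genes called in the difference was 0 with hypothalamus, amygdala, cortex or ventral striatum left out and 1 without hippocampus. Both doses of a region may share saline RNA, and the labels do not say whether they do.

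By list, the medians lay near that of all features, which was 0.00 at both doses. Identity genes of dopamine neurons had a median log2 ratio of 0.02 over 6 genes at the high dose and 0.01 over 7 at the low dose. Identity genes of serotonin neurons had -0.02 over 4 and 0.01 over 7. Genes of noradrenaline, adrenaline and histamine had 0.03 over 2 and -0.02 over 3. Cofactor genes had -0.01 over 6 and 0.00 over 7, breakdown enzymes 0.00 over 9 and 0.01 over 8, and receptors of dopamine and serotonin 0.00 over 5 and 0.02 over 7.

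**Figure D4:**
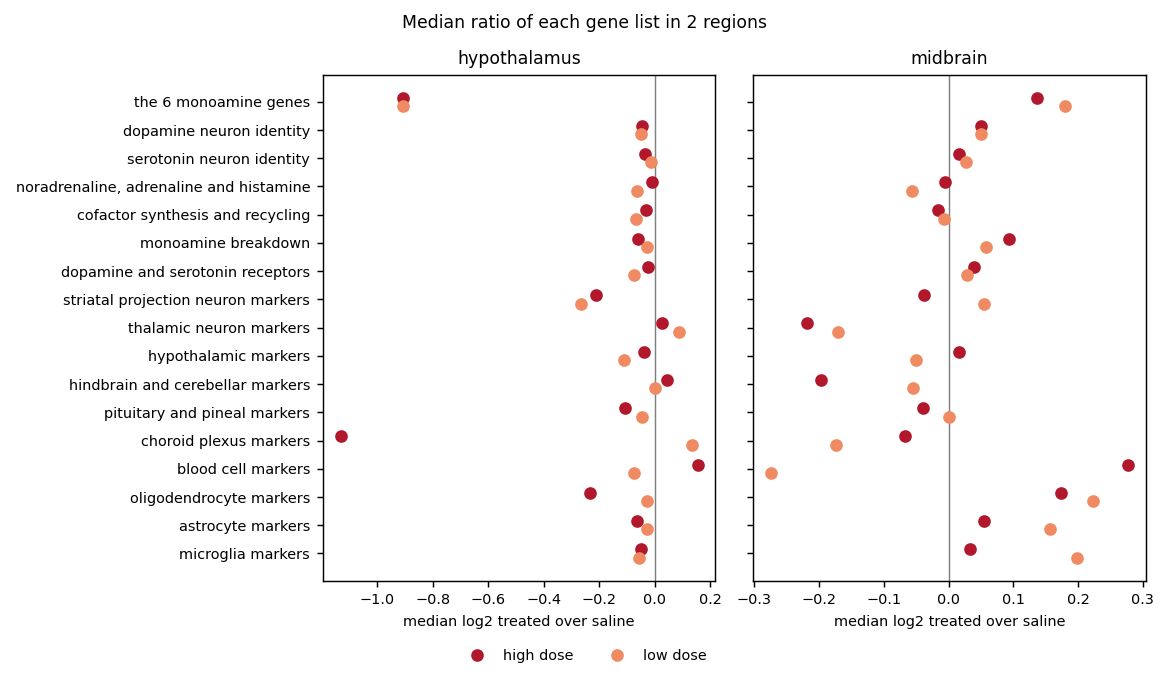
Median log2 ratio of treated over saline RNA of the genes measured in each list, in hypothalamus and in midbrain, with the high dose dark and the low dose light; the horizontal scales of the 2 panels differ. The monoamine genes stand at -0.91 at both doses in hypothalamus, and the choroid plexus markers at -1.13 with the high dose and 0.14 with the low dose.

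In hypothalamus, 2 of 11 identity genes of dopamine neurons had a ratio above 0 at each dose, with a median of -0.05 at both. Foxa2, a transcription factor of midbrain dopamine neurons, had -0.45 ± 0.16 with the high dose and -0.25 ± 0.09 with the low dose. Slc10a4, a transporter of monoaminergic and cholinergic vesicles, had -0.39 ± 0.06 and -0.40 ± 0.0049. Both were below 0 on all 4 arrays. Ret, a receptor for glial neurotrophic factors, had -0.05 ± 0.03 and 0.01 ± 0.18, and Aldh1a1, an aldehyde dehydrogenase of a subset of dopamine neurons, had -0.06 ± 0.25 and -0.04 ± 0.21. The summed level of the dopamine identity list was 13.37 to 13.39 in high-dose RNA, against 13.39 to 13.47 in saline RNA. At the low dose it was 13.54 to 13.73 in treated RNA, against 13.56 to 13.85 in saline RNA.

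Markers of other cells had the following values in the same hypothalamic RNA. Hypothalamic markers had 2 of 7 genes above 0 at each dose, with medians of -0.04 and -0.11. They summed to 12.11 to 12.18 in high-dose RNA, against 13.46 to 13.52 in saline RNA, and to 12.61 to 12.62 in low-dose RNA, against 13.61 to 13.70 in saline RNA. Pmch, for melanin-concentrating hormone of the lateral hypothalamus, had log2 ratios of -2.96 ± 0.02 and -1.76 ± 0.03, so the sums and the medians of this list differ in size. Striatal projection neuron markers had 1 of 10 above 0 at the high dose and 0 of 10 at the low dose, and all 10 were well above background. They summed to 13.21 to 13.25 in high-dose RNA, against 13.34 to 13.63 in saline RNA, and to 13.30 to 13.52 in low-dose RNA, against 13.72 in saline RNA. Of 7 choroid plexus markers 5 were measured, with 0 of 5 above 0 at the high dose and 5 of 5 at the low dose. They summed to 11.98 to 12.22 in high-dose RNA, against 13.85 in saline RNA, and to 14.16 to 14.30 in low-dose RNA, against 13.89 to 13.90 in saline RNA. The part of these differences in the ratios of Th, Slc6a3 and Slc18a2 was not tested. Pmch was chosen for mention after its values were seen.

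Oligodendrocyte markers in hypothalamus had 0 of 7 genes above 0 at the high dose (median -0.23) and 2 of 7 at the low dose (median -0.03). Thalamic markers had 3 of 5 above 0 at each dose and summed to 16.92 to 16.95 in high-dose RNA, against 16.80 to 16.82 in saline RNA. At the low dose they summed to 16.84 to 16.95 in treated RNA, against 16.81 to 16.88 in saline RNA. Among cofactor genes, Gch1, for the first enzyme of tetrahydrobiopterin synthesis, had 0.03 ± 0.0034 and -0.12 ± 0.11 in hypothalamus. The dopamine receptor gene Drd2 had -0.17 ± 0.07 and -0.09 ± 0.05.

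In midbrain, 10 of the 11 identity genes of serotonin neurons were measured. Of these 5 were above 0 with the high dose and 6 with the low dose, with medians of 0.02 and 0.03. Their sum was 11.33 to 11.59 in high-dose RNA, against 11.39 to 11.42 in saline RNA, and 11.29 to 11.39 in low-dose RNA, against 11.26 to 11.37 in saline RNA. Gata3, a transcription factor of serotonin neurons, had 0.09 ± 0.15 and 0.03 ± 0.04, and the related Gata2 had -0.01 ± 0.30 and 0.12 ± 0.24. Crhr2 had -0.07 ± 0.11 and -0.06 ± 0.09, and Nkx2-2 had -0.01 ± 0.06 and 0.02 ± 0.14. Fev, for the Pet-1 factor that defines serotonin neurons, was well above background on 0 of the 4 saline and 0 of the 4 treated midbrain arrays, and gives no direction. The list is a description beside the 2 genes, and no test of the difference between them was made.

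Thalamic neuron markers had 1 of 5 genes above 0 in midbrain at each dose, with medians of -0.22 and -0.17. They summed to 15.57 to 15.66 in high-dose RNA, against 15.71 to 15.80 in saline RNA, and to 15.56 to 15.74 in low-dose RNA, against 15.68 to 15.82 in saline RNA. Prkcd, for protein kinase C delta of thalamic neurons, had -0.89 ± 0.05 and -1.17 ± 0.07, and was chosen for mention after its values were seen. Hindbrain and cerebellar markers summed to 12.13 to 12.43 in high-dose RNA, against 12.21 to 12.74 in saline RNA, and to 12.40 to 12.50 in low-dose RNA, against 12.52 to 12.60 in saline RNA. Of these, Hoxa2, Hoxb2, Hoxb3 and Gabra6 were well above background on 0 of the 4 saline arrays. Oligodendrocyte markers had 6 of 7 above 0 at each dose (medians 0.17 and 0.22), but with a wide spread between the arrays of a pair. Mbp, for myelin basic protein, had 0.27 ± 1.23 and 0.35 ± 1.11, with opposite signs on the 2 arrays of each dose, and was likewise chosen after its values were seen. Blood cell markers had 4 of 5 above 0 at the high dose (median 0.28) and 0 of 5 at the low dose (median -0.27). The part of these lists in the ratios of Tph2 and Slc6a4 was not tested.

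Of the genes that supply or clear monoamines, cofactor genes in midbrain had 3 of 8 above 0 at the high dose and 3 of 9 at the low dose. Gchfr, the feedback regulator of GTP cyclohydrolase, had 0.27 ± 0.14 and 0.49 ± 0.10, above 0 on all 4 arrays. Gch1 had 0.15 ± 0.08 and 0.12 ± 0.05, Qdpr, for dihydropteridine reductase, had -0.01 ± 0.35 and -0.14 ± 0.38, and Pts, for the enzyme after Gch1, had -0.03 ± 0.06 and -0.04 ± 0.03. Breakdown enzymes had 8 of 9 above 0 at the high dose and 7 of 9 at the low dose, with medians of 0.09 and 0.06. Akr1a1, an aldehyde reductase, had 0.11 ± 0.20 and 0.13 ± 0.18, and Aldh2, a mitochondrial aldehyde dehydrogenase, had 0.15 ± 0.21 and 0.01 ± 0.07. Akr1b1, also of this list, had -0.05 ± 0.23 and 0.06 ± 0.24. Hdc, the histamine-forming enzyme, had 0.12 ± 0.36 and -0.23 ± 0.37. Of the same list, Hnmt had -0.04 ± 0.03 and -0.06 ± 0.03, and Slc6a2 had -0.06 ± 0.32 and 0.03 ± 0.26. Dbh was well above background on 2 of the 4 saline midbrain arrays and was not measured there at either dose. Receptor genes had 6 of 11 and 6 of 10 above 0, with Drd2 at 0.06 ± 0.21 and 0.12 ± 0.14 and the serotonin receptor gene Htr7 at -0.06 ± 0.12 and 0.04 ± 0.10. Htr2c had -0.16 ± 0.30 and -0.07 ± 0.37, and Htr1d had -0.10 ± 0.17 and -0.07 ± 0.01.

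The genes whose saline levels were most like the mean of Th and Slc6a3 over 23 channels, among 9050 named genes well above background in saline midbrain, were Foxa2 (Pearson r 0.997), Dao (0.978), Spp1 (0.972), Chrna6 (0.971) and Grin3b (0.964). Dao encodes D-amino acid oxidase, Spp1 osteopontin, Chrna6 a nicotinic acetylcholine receptor subunit and Grin3b an NMDA receptor subunit. In midbrain their mean log2 ratios lay between -0.08 and 0.21 at the high dose and between -0.06 and 0.17 at the low dose. The arrays of a pair differed widely for Chrna6 (0.06 ± 0.89 and 0.14 ± 0.73) and Dao (0.21 ± 0.36 and 0.17 ± 0.41). For Foxa2, Spp1 and Grin3b the SD was at most 0.13. In hypothalamus Foxa2 had the lowest ratios of the 5 at both doses, as given above, and the other 4 lay between -0.15 and -0.05 at the high dose and between -0.16 and 0.08 at the low dose. Chrna6, which gives the -0.15, was well above background there on only 2 of the 4 saline arrays and 0 of the 4 treated arrays. It does not count as measured in hypothalamus. The next ratio above it at the high dose was -0.12, of Spp1.

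Among the genes most like the mean of Tph2 and Slc6a4 over 24 channels were Epyc (Pearson r 0.905), Uts2 (0.904), Zar1 (0.902) and Erhl1 (0.884). Epyc encodes the proteoglycan epiphycan and Uts2 the peptide urotensin II. In midbrain Epyc had log2 ratios of 0.69 ± 0.46 with the high dose and 0.99 ± 0.26 with the low dose. Uts2, Zar1 and Erhl1 lay between -0.23 and 0.16 at the high dose and between 0.02 and 0.15 at the low dose. The channels of a region share slide and possibly RNA, and no p was computed for these correlations.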

How the data were processed

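Each array compared treated with saline RNA of 1 region in Cy5 and Cy3. The scanner software was Agilent Feature Extraction 9.5.3.1, per the submitters' processing notes. The authors deposited spot intensities of both channels, with local background medians and the software's processed intensities, which were background-subtracted and dye-normalised per the file headers. The deposited value table holds log10 ratios. It matched log10 of the processed signals, turned to treated over saline, within 0.01 for 100% of its values, so scale and direction are known and no further centring was found.

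Here, mean signals and background medians were corrected with normexp (offset 50) and loess-normalised within each array, control spots having weight 0, using limma 3.58.1 (R 4.3.3). Ratios were turned to treated over saline and dye-swapped arrays averaged. Channel levels were then put on 1 scale with Aquantile. Spots flagged as outliers were left out, spots of a probe averaged, and the brightest probe stood for a gene. Of 41012 probes, 10735 were named by accession, 5571 by file symbol, 3729 by synonym, and 20977 kept the file's name. A gene counted as measured in a region and dose when well above background on both arrays in treated or in saline RNA. Across-region fits needed this, and a value on both arrays, in all 6 regions, so that the dye effect cancels. The fit was tested on simulated data. Its p-values measure only the spread between regions. Figures were drawn with matplotlib 3.10.9 (Python 3.11.15).

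The genes and lists were chosen with earlier results of these data known. Named are all 6 genes, list genes called in a fit, otherwise the 4 of each list with the highest midbrain excess in saline RNA, and the 5 genes most like each pair. Names outside this rule are said to be so, and 2 genes within it are not reported here. Fev, Hoxa2, Hoxb2, Hoxb3 and Gabra6 are named as defining markers. Alternatives were processed signals, median centring, offset 16, the deposited table, mean over probes, no filter, scan day as a block, array weights, and each region or array left out.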

Additional observations from a re-analysis of the deposited data

Results flagged for a closer look

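Values of the 6 genes were grouped over the regions in which a gene was measured, or over the 4 saline channels of a region. In all, 34 groups of 4 or more values were examined. The search was for a value that stands apart by its gap to the nearest other, as a share of the whole range. Of these, 8 groups held one. Chance gives such a value in about 1 in 20 groups, but these levels and ratios had chosen the genes, so the count is a description and no test.

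Among ratios over measured regions, hypothalamus stood apart for Th at the high dose (log2 ratio -0.96, other measured regions -0.03 to 0.14). It did so again at the low dose (-0.93, others -0.07 to 0.18), and for Slc18a2 at the high dose (-0.91, others -0.09 to 0.07). Midbrain stood apart for Tph2 at the high dose (0.77, others -0.01 to 0.07) and the low dose (1.42, others 0.17 to 0.21), with 4 regions measured at each dose. Midbrain also stood apart for Slc6a4 at the low dose (0.90, others -0.03 to 0.04), with 5 regions measured.

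Among saline levels, the low-dose array with saline RNA in Cy3 read Slc18a2 at 6.93 in ventral striatum, against 7.12 to 7.13 on the other 3 arrays. The high-dose array with saline RNA in Cy3 read Ddc at 12.25 in hypothalamus, against 12.82 to 12.88 on the others.

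In cortex, the log2 ratio of the brighter Slc18a2 probe was 0.01 with the high dose and -0.15 with the low dose, with opposite signs on every array and a difference of 0.15. The dimmer probe, not counted as measured in cortex at either dose, read 0.002 and 0.09. With the mean over probes the values were 0.005 and -0.03. The difference between the doses was not tested.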

How the results depend on the processing

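With median centring in place of loess, 142 features were called at the high dose and 104 in the high minus low difference. Leaving out 1 region in turn gave 286 (without cortex) to 403 calls at the high dose, with 303 without amygdala and 304 without ventral striatum, 373 (without ventral striatum) to 536 at the low dose, with 377 without cortex, and 232 to 287 for the difference. The pathway lists had 0 to 2 calls in the difference with 1 region left out. They had 1 with processed signals, the deposited table, the mean over probes, no filter or scan day as a block, and 0 with median centring. At the low dose the mean over probes left 0. Fewer samples enter the fits with a region left out, and the cause of the other moves was not tested. In saline midbrain, 217 features, with 6 of the 6 genes, were at least 4-fold higher with processed signals. As a separate alternative, a cut of 8-fold gave 29 features, with 4 of the 6 genes.

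With the other background corrections, normalisations and the deposited table, Th in hypothalamus kept a log2 ratio of -1.26 to -0.96 at the high dose and -1.17 to -0.93 at the low dose, and Tph2 in midbrain one of 0.68 to 0.89 and one of at least 1.41. Single arrays gave Tph2 0.54 to 0.996 and 1.15 to 1.69, and Slc6a3 in hypothalamus -2.44 to -2.24 and -2.08 to -1.90. Signals near background (Slc6a3 outside midbrain and saline hypothalamus, Tph2 and Slc6a4 in several regions) limit what can be said of small ratios. Every ratio is paired within its array. No paired analysis was possible beyond that because the numbers of a pair stand for its dye orientation, and both arrays were averaged before the fits.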
